A study of Mus musculus with 16 samples.

Results

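Mitochondrial respiratory, import and ribosomal protein genes were taken from both expression tables of the series by their symbols alone. The families were chosen with earlier results of these data known. Members are every gene whose symbol begins with Nduf (complex I), Uqcr (complex III), Cox and a digit (complex IV), Atp5 (complex V), Timm or Tomm (protein import), Mrpl or Mrps (mitochondrial ribosome), or Rpl or Rps and a digit (cytosolic ribosome). This gave 69 of the 2247 genes in the tables, of which 27 of 1556 were in the table of labelled RNA, 47 of 793 in the fetal liver table and 5 in both. The tables list only genes that changed in at least 1 comparison of the authors (q of at most 0.05), so the members are those of each family that moved somewhere, and the other genes of the same table are their background. The symbol rule also takes in 4 genes that were set apart here from the subunits, translocases and ribosomal proteins. Cox14 and Cox17 help to assemble complex IV. Rps27l is a close relative of a small-subunit protein, and the product of Rps19bp1 binds a ribosomal protein.

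The respiratory chain passes electrons along complexes I, III and IV and pumps protons that complex V uses to make ATP. Nearly all of its subunits are encoded in the nucleus and enter the organelle through the translocases TOM and TIM, while the remaining few are made inside by the mitochondrial ribosome. Red cell precursors depend on these organelles for the synthesis of heme and on very active cytosolic ribosomes for the synthesis of globin, and they discard both as they mature. KLF1 is a zinc finger transcription factor of the erythroid lineage, and Nan is a missense mutation in 1 of its DNA-binding fingers.

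New RNA was sequenced after labelling with 500 uM 4-thiouridine (4sU) for 1 h in K1-NanER, K1-ER and parental K1 cells, with 2 libraries each, all treated with 200 nM 4-hydroxytamoxifen per the labels, although the column header of K1 does not name the drug. K1 is a line of erythroblasts without KLF1, and the transfected lines carry a tamoxifen-inducible fusion of the oestrogen receptor with Nan-KLF1 (clones B and X) or with KLF1 (clones A and C), so that clones are set against parental cells. Polyadenylated RNA came from whole livers of Nan/+ and wild-type (+/+) fetuses at embryonic day 14.5, with 3 libraries each, after removal of globin RNA; whole liver holds erythroid cells beside hepatoblasts, macrophages and other cells. Chromatin bound by either protein was precipitated with an antibody to KLF1 and sequenced (ChIP-seq) from K1-NanER and K1-ER cells after 3 h in 200 nM 4-hydroxytamoxifen, each as 1 ChIP library pooled from 3 replicates and 1 input library. Levels are FPKM, which counts fragments per kilobase of transcript, scaled to a fixed number of mapped fragments. The authors' tables hold a single value for each group, so the spread between replicates is not known, nor is the depth of the libraries, and no level below has an error or n. "Rose" and "fell" are used below of genes whose q in the authors' own test was at most 0.05.

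Most of these genes had a lower level of new RNA, in FPKM, in cells with Nan-KLF1 than in parental cells. FPKM gives a share of the labelled RNA, so the amount made per cell is not known. All 27 members of the 4sU table passed the authors' test in K1-NanER against K1, and 21 of them fell while 6 rose. In the table as a whole 75.7% of genes passed in that comparison, with 28.3% falling and 47.4% rising. The median log2 ratio of the members was -1.43, against 1.04 for all 1556 genes of the table. In K1-ER against K1, 4 members passed, of which 3 fell and 1 rose (of all genes 49.4% passed, 11.5% fell and 37.9% rose). The median log2 ratio in K1-ER was -0.38 for the members and 0.72 for all genes. A gene enters the 4sU table by passing in either line. Members that did not pass in K1-ER are therefore listed because they passed in K1-NanER, which favours this contrast of counts and medians between the lines. By the unadjusted p of the authors' deposited table, under 0.05, there were 9 members lower and 4 higher in K1-ER than in K1. At a stricter q of 0.01 in K1-NanER 9 members fell and 4 rose (12.8% and 28.2% of the table), and in K1-ER no member fell or rose (5.27% and 24.4% of the table; 9 and 4 members by the unadjusted p). Of all genes there, 27.1% fell and 46.7% rose at least 2-fold in K1-NanER, and 11% fell and 36.8% rose at least 2-fold in K1-ER.

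Both listed complex I genes fell in K1-NanER. Ndufa13 (chromosome 8, 72418081 to 72427417, mm9) codes for an accessory subunit of complex I and had 5.40 FPKM in K1-NanER, 8.39 in K1-ER and 20.3 in K1 in the authors' deposited table, a log2 ratio of -1.91 in K1-NanER (q = 0.0392) and -1.28 in K1-ER (q = 0.103). Its locus overlaps that of the kinase gene Tssk6 in RefSeq, so its reads may not be its own. Ndufb7 (chromosome 8, 86090657 to 86095522), another accessory subunit, had 25.1 FPKM in K1-NanER, 27.7 in K1-ER and 73.8 in K1 in the authors' deposited table. It was the 1 gene of the respiratory chain that fell in both lines, with log2 ratios of -1.55 in K1-NanER (q = 0.0386) and -1.41 in K1-ER (q = 0.0453) in the authors' deposited table.

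The genes of complexes III and IV followed the same direction in K1-NanER. Uqcr11 (chromosome 10, 79865742 to 79869566), a small subunit of complex III, had 42.5 FPKM in K1-NanER, 58.9 in K1-ER and 120 in K1 in the authors' deposited table. Uqcrc1 (chromosome 9, 108838661 to 108851686), a core protein of complex III, had 44.2 FPKM in K1-NanER, 60.8 in K1-ER and 101 in K1. The log2 ratios in K1-NanER were -1.503 for Uqcr11 (q = 0.0329) and -1.19 for Uqcrc1 (q = 0.00381) in the authors' deposited table, and neither gene passed in K1-ER. Cox6a1 (chromosome 5, 115795663 to 115798964), the widely expressed form of a complex IV subunit, stood apart in that K1-ER lay beside K1: it had 47.9 FPKM in K1-NanER, 143 in K1-ER and 147 in K1 in the authors' deposited table, with log2 ratios of -1.61 in K1-NanER (q = 0.00669) and -0.04 in K1-ER (q = 0.977).

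The only listed complex V gene went the other way. Atp5g2 (chromosome 15, 102493299 to 102501478) codes for the c subunit, which forms the rotating ring of ATP synthase. It had 160.5 FPKM in K1-NanER, 73.5 in K1-ER and 43.3 in K1 in the authors' deposited table, a log2 ratio of 1.89 in K1-NanER (q = 0.00213) and 0.76 in K1-ER (q = 0.306).

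Import genes went both ways in K1-NanER, where 4 fell and 2 rose. The pore of the outer membrane, Tomm40 (chromosome 7, 20286662 to 20300778), had 79.0 FPKM in K1-NanER, 145 in K1-ER and 188 in K1, a log2 ratio of -1.25 in K1-NanER (q = 0.00535) in the authors' deposited table. The channel protein of the inner membrane, Timm23 (chromosome 14, 32993352 to 33015077), had 26.5 FPKM in K1-NanER, 51.5 in K1-ER and 77.1 in K1, a log2 ratio of -1.54 in K1-NanER (q = 0.00381) in the authors' deposited table. Timm50, a receptor beside that channel, had 17.6 FPKM in K1-NanER, 24.98 in K1-ER and 47.8 in K1, a log2 ratio of -1.44 in K1-NanER (q = 0.0158) in the authors' deposited table. Timm13, a small chaperone between the membranes, had 16.2 FPKM in K1-NanER, 36.5 in K1-ER and 43.7 in K1, a log2 ratio of -1.43 in K1-NanER (q = 0.0358) in the authors' deposited table. Of these 4, none passed in K1-ER. The locus that the table gives to Timm13 is 21154 bp long, against 1520 bp in RefSeq, so its values may hold reads of neighbouring genes.

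The genes that rose in this group code for receptors of the outer membrane. Tomm22 (chromosome 15, 79501298 to 79503292), the central receptor, had 84.7 FPKM in K1-NanER, 64.3 in K1-ER and 39.7 in K1 in the authors' deposited table, a log2 ratio of 1.09 in K1-NanER (q = 0.0392) and 0.70 in K1-ER (q = 0.267). Tomm70a (chromosome 16, 57121827 to 57154643), the receptor for carrier proteins, had 35.8 FPKM in K1-NanER, 17.7 in K1-ER and 17.6 in K1, a log2 ratio of 1.02 in K1-NanER (q = 0.0429) and 0.01 in K1-ER (q = 0.994) in the authors' deposited table. Its locus, at 32817 bp, is the longest of all 27.

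All 3 listed genes of the mitochondrial ribosome fell in K1-NanER, and Mrpl34 had the largest fall of all members. Mrpl34 (chromosome 8, 73988825 to 73989652), a protein of the large subunit with the shortest locus of all members (828 bp), had 20.0 FPKM in K1-NanER, 55.1 in K1-ER and 115 in K1 in the authors' deposited table, a log2 ratio of -2.52 in K1-NanER (q = 0.00213) and -1.06 in K1-ER (q = 0.0734). The large-subunit gene Mrpl37 had 11.4 FPKM in K1-NanER, 18.6 in K1-ER and 35.5 in K1, and the small-subunit gene Mrps26 had 20.7, 48.2 and 60.8 FPKM in the same order of lines. Their log2 ratios in K1-NanER were -1.63 for Mrpl37 (q = 0.0127) and -1.55 for Mrps26 (q = 0.0137) in the authors' deposited table.

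Cytosolic ribosomal protein genes made up the largest group of the 4sU table, and 9 of its 12 genes fell in K1-NanER while 3 rose. Their summed level was 1454 FPKM in K1-NanER, 2037 in K1-ER and 2718 in K1. Over all genes of the table the sum was 59223 FPKM in K1-NanER, 86599 in K1-ER and 74169 in K1. Rpl13 (chromosome 8, 125626250 to 125629142), of the large subunit, had 107 FPKM in K1-NanER, 279 in K1-ER and 387 in K1 in the authors' deposited table, a log2 ratio of -1.86 in K1-NanER (q = 0.00213). Rps16 (chromosome 7, 29135708 to 29137717), of the small subunit, had 66.2 FPKM in K1-NanER, 172 in K1-ER and 194 in K1, a log2 ratio of -1.55 (q = 0.00931) in the authors' deposited table. For both genes K1-ER lay closer to K1 than to K1-NanER, with log2 ratios over K1 of -0.48 (q = 0.471) and -0.17 (q = 0.866) in the authors' deposited table.

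In 2 genes of the cytosolic ribosome the fall was shared by both lines. Rps21 (chromosome 2, 179992084 to 179993149), which had the highest level of any member in K1, had 204 FPKM in K1-NanER, 207 in K1-ER and 482 in K1 in the authors' deposited table, with log2 ratios of -1.24 in K1-NanER (q = 0.0104) and -1.22 in K1-ER (q = 0.0137). Rpl37 (chromosome 15, 5066613 to 5069140) had 60.3 FPKM in K1-NanER, 96.6 in K1-ER and 205 in K1, with log2 ratios of -1.77 in K1-NanER (q = 0.00213) and -1.09 in K1-ER (q = 0.0196) in the authors' deposited table. Rpl18, Rpl29, Rps9 and Rps13 also fell in K1-NanER, with log2 ratios of -1.22, -1.37, -1.31 and -1.43 in the authors' deposited table. Rps13 had 44.0 FPKM in K1-NanER, 79.1 in K1-ER and 119 in K1. Rpl29 was the only faller with a higher level in K1-ER than in K1, at 24.7 FPKM in K1-NanER, 79.7 in K1-ER and 63.5 in K1, and its difference between K1-ER and K1 did not pass the test (q = 0.709) in the authors' deposited table.

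The genes of this group that rose were Rpl21, Rps24 and Rps27l. Rps27l (chromosome 9, 66793925 to 66797316), which the tumour suppressor p53 induces in human cells, had the largest rise of all members, with 160 FPKM in K1-NanER, 66.0 in K1-ER and 26.4 in K1 in the authors' deposited table, a log2 ratio of 2.60 in K1-NanER (q = 0.00213) and 1.32 in K1-ER (q = 0.116). Rpl21 (chromosome 5, 147644466 to 147648608) had 152.5 FPKM in K1-NanER, 94.6 in K1-ER and 45.3 in K1, and was the only member that rose in both lines, by log2 ratios of 1.75 in K1-NanER (q = 0.00213) and 1.06 in K1-ER (q = 0.0263) in the authors' deposited table. RefSeq names 15 pseudogenes after Rpl21 and shows snoRNA genes inside its locus, so its reads may be shared with other copies or hosted RNAs. Rps24 (chromosome 14, 25309903 to 25315368) had 125 FPKM in K1-NanER, 74.4 in K1-ER and 44.0 in K1, a log2 ratio of 1.505 in K1-NanER (q = 0.00213) in the authors' deposited table. In all, 8 of the 12 cytosolic ribosome genes have at least 1 RefSeq pseudogene named after them, so the assignment of their reads is uncertain.

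**Figure D1:**
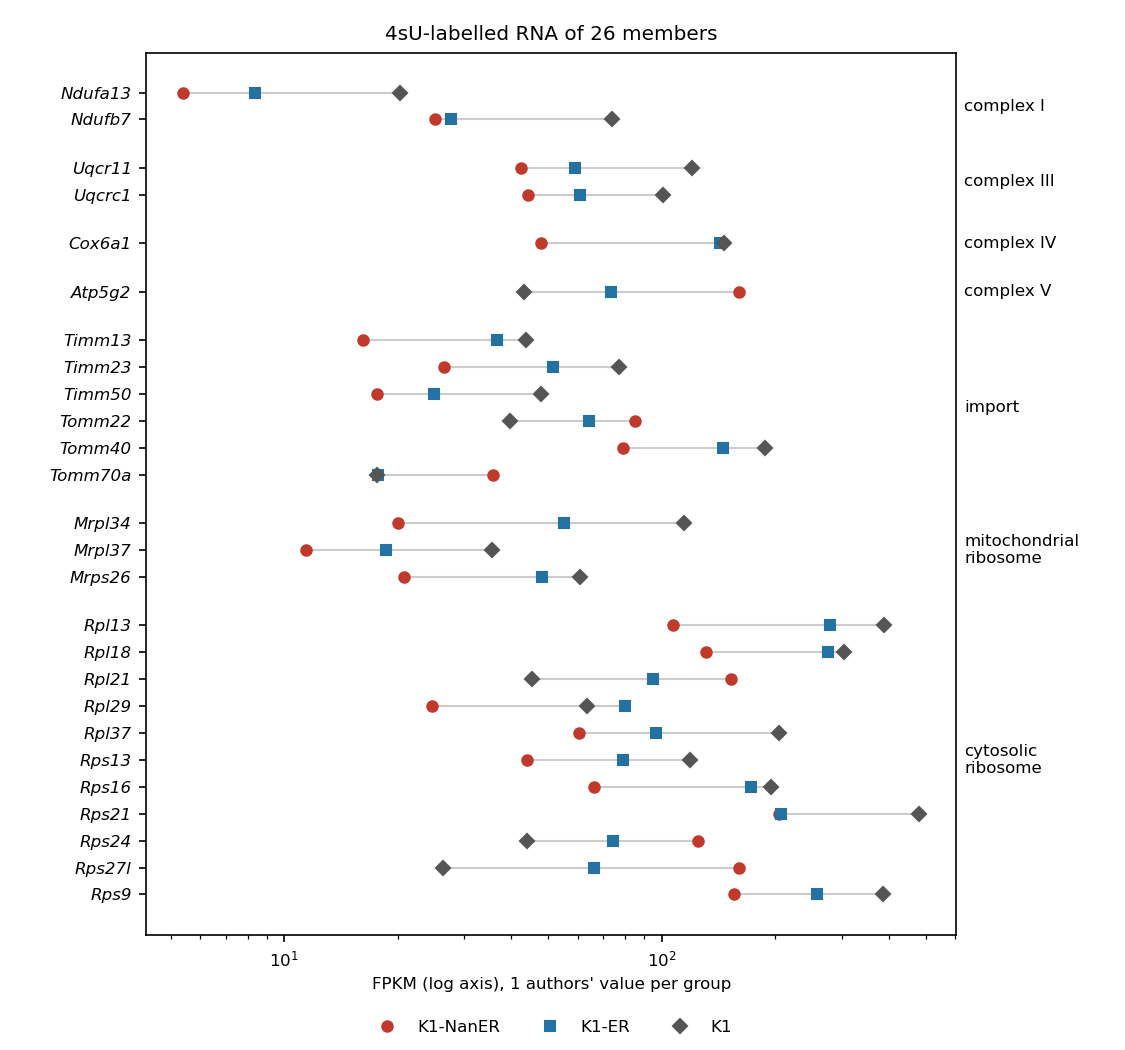
Level of 4sU-labelled RNA (FPKM, log axis) of 26 members in K1-NanER (red circles), K1-ER (blue squares) and K1 (grey diamonds), grouped by complex, with a line joining the lowest and highest value of a gene. Each point is the authors' single value per group. In 20 genes the K1-NanER point lies lowest and in 6 it lies highest.

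Set side by side, the K1-NanER level lay beyond the K1-ER level, seen from K1, in all 27 members. Of the 21 genes that fell in K1-NanER, all 21 had a lower level in K1-NanER than in K1-ER, and 20 had a lower level in K1-ER than in K1. All 6 that rose were highest in K1-NanER and lowest in K1. The median log2 ratio of K1-NanER over K1-ER was -0.85 among the fallers (from -1.69 for Rpl29 to -0.02 for Rps21) and 0.88 among the risers (from 0.40 for Tomm22 to 1.28 for Rps27l). Among all genes of the table that fell in K1-NanER the same order of K1-NanER and K1-ER held in 406 of 441, which is 92.1%, and among all that rose in 580 of 737, which is 78.7%. Where a gene is listed because it passed in K1-NanER alone, this order is favoured by that choice. Of the 27 members 4 passed in K1-ER, against 49.4% of all genes of the table. The choice thus bears on most members, and more on them than on all genes. Both comparisons share the K1 libraries, and the tables hold no test of K1-NanER against K1-ER. The median over all genes of the table was -0.26.

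Genes of the same processes outside the symbol families were taken from a list of 83, of which 12 have a 4sU row: 7 fell and 3 rose in K1-NanER. Of all protein-coding genes 6.36% have a 4sU row, and of all genes listed there 28.3% fell and 47.4% rose in K1-NanER. The fallers included Phb2, a scaffold of the inner membrane, with 92.1 FPKM in K1-NanER, 219 in K1-ER and 221 in K1, and Polrmt, the mitochondrial RNA polymerase, with 4.88, 8.03 and 13.6 FPKM in the same order of lines, in the authors' deposited table. Fau, which codes for a ribosomal protein fused to a ubiquitin-like protein, fell as well, with 52.1 FPKM in K1-NanER, 151 in K1-ER and 137 in K1 in the authors' deposited table. Hspd1, the chaperonin of the mitochondrial matrix, rose and had 180 FPKM in K1-NanER, 110 in K1-ER and 74.0 in K1 in the authors' deposited table. In K1-ER 3 of the 12 rose and 0 fell by the authors' test (1 was lower at an unadjusted p under 0.05). No gene of complex II, and none of the listed electron carriers and heme assembly genes, has a row in either table.

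Of the 8 listed erythroblast markers 4 have a row in the 4sU table, and 2 rose in K1-NanER and 4 rose in K1-ER (against 47.4% and 37.9% of all genes). Their summed level was 279 FPKM in K1-NanER, 611 in K1-ER and 158 in K1. The gap between K1-NanER and K1-ER in this sum was mainly that of Epor, with 139.3 FPKM in K1-NanER, 485.1 in K1-ER and 128.7 in K1. The log2 ratio of K1-NanER over K1-ER was -1.80 for Epor and -2.24 for Slc4a1, but 0.02 for Alas2 and 0.26 for Tfrc. The sum therefore does not describe the 4 markers as a set. The macrophage, granulocyte and skeletal muscle markers have no row there, and of the hepatocyte markers only Dlk1 has one. The part of such differences between clones in the values above was not tested.

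**Figure D2:**
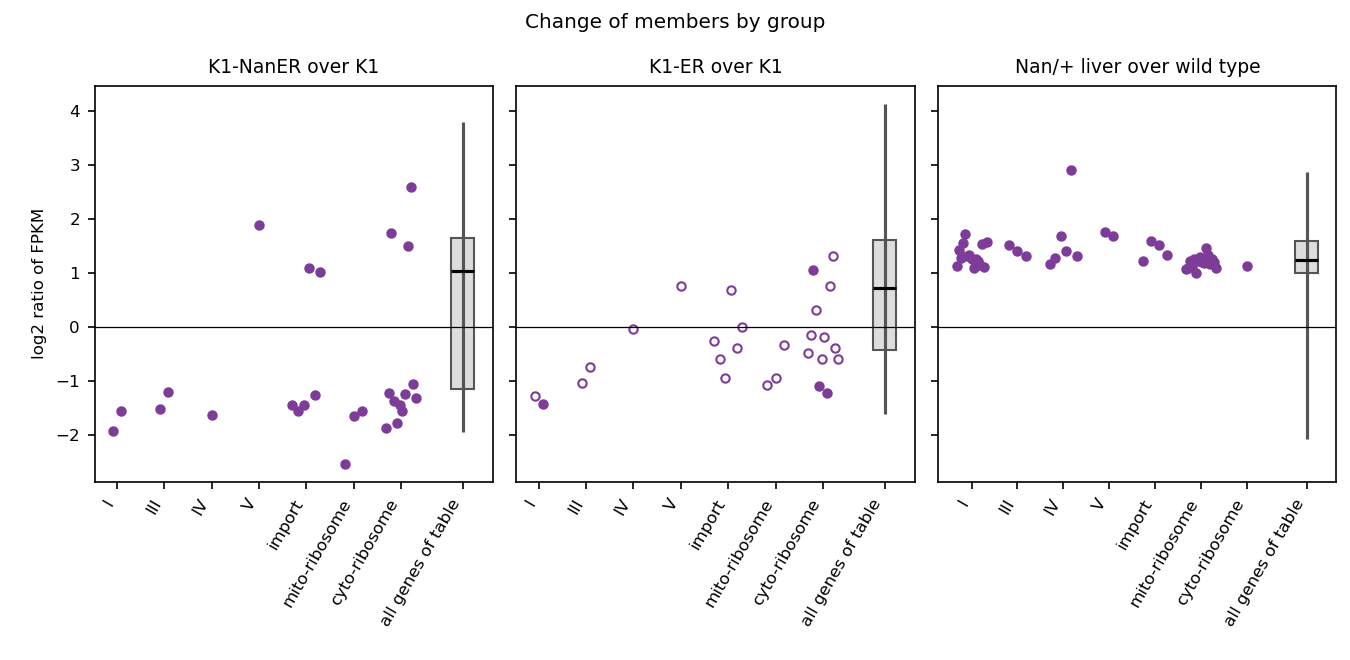
Log2 ratio of FPKM of each member by group in K1-NanER over K1, K1-ER over K1 and Nan/+ over wild-type liver. Filled circles passed the authors' q of 0.05 and open circles did not; the box at the right of each panel holds the median, quartiles and the range from the 5th to the 95th percentile of all genes of the table. The members lie mostly between -1 and -2 in K1-NanER and between 1 and 2 in Nan/+ liver.

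All 47 members of the liver table had a higher FPKM in Nan/+ than in wild-type fetal livers, and 0 members fell. In the table as a whole 75.4% of genes rose and 24.6% fell, and 100% passed the authors' test, since no other gene is listed. The members' log2 ratios ran from 1.00 to 2.91 with a median of 1.28, against a median of 1.37 among all 598 genes that rose. The lower end is set by the table, which lists no ratio under 1.00 in size. At a q of 0.01, 3 members rose, against 35.3% of the table, while 12.2% of the table fell. The members' summed level was 14334 FPKM in Nan/+ and 5298 FPKM in wild-type livers. The sum over all 793 genes of the table changed in a like proportion, with 67572 FPKM in Nan/+ and 24631 FPKM in wild type. The mitochondrial ribosome with 16 genes and complex I with 15 made up most of the list, followed by complex IV with 6, import with 4, complex III with 3 and complex V with 2. Of the protein-coding genes that RefSeq names by the same rule, the liver table listed 30.6% for complex I, 37.5% for complex III, 22.2% for complex IV, 11.8% for complex V, 15.4% for import, 20.5% for the mitochondrial ribosome and 1.03% for the cytosolic ribosome, against 3.23% of all protein-coding genes. In the 4sU table the share was 4.08% for complex I, 25% for complex III, 3.70% for complex IV, 5.88% for complex V, 23.1% for import, 3.85% for the mitochondrial ribosome and 12.4% for the cytosolic ribosome, against 6.36% of all. The count of all protein-coding genes is not limited to genes expressed in these samples. The family counts also hold genes that share a prefix by name only, such as Rps6k kinase genes.

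Complex I genes in liver had log2 ratios from 1.11 to 1.74 in the authors' deposited table. Ndufa3 (chromosome 7, 3568975 to 3571763), an accessory subunit, changed most and had 570 FPKM in Nan/+ and 171 FPKM in wild-type livers (log2 ratio of 1.74, q = 0.00244) in the authors' deposited table. Ndufv3 had 205 FPKM in Nan/+ and 68.1 FPKM in wild type, Ndufa2 374 FPKM in Nan/+ and 126 FPKM in wild type, and Ndufs6 370.4 FPKM in Nan/+ and 128 FPKM in wild type. Their log2 ratios were 1.59 for Ndufv3, 1.57 for Ndufa2 and 1.54 for Ndufs6 in the authors' deposited table. Ndufs3 and Ndufs7, core subunits that bacteria share, had 187 and 223 FPKM in Nan/+ and 83.7 and 103 FPKM in wild type in the authors' deposited table. Ndufa2 has a table locus 4.20 times its RefSeq length that overlaps Tmco6, so its level may not be its own.

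The remaining accessory genes of complex I also rose. Ndufa6 had 415 FPKM in Nan/+ and 164 FPKM in wild type, Ndufa5 had 307 FPKM in Nan/+ and 122 FPKM in wild type, and Ndufa7 had 304 FPKM in Nan/+ and 127 FPKM in wild type in the authors' deposited table. Ndufc1 had 276 FPKM in Nan/+ and 118 FPKM in wild type, Ndufa1, which lies on the X chromosome, had 176 FPKM in Nan/+ and 80.5 FPKM in wild type, and Ndufb5 had 153 FPKM in Nan/+ and 70.8 FPKM in wild type. Ndufa11, the lowest of the group, had 35.1 FPKM in Nan/+ and 13.01 FPKM in wild type in the authors' deposited table. In the authors' deposited table the q values of these 7 genes lay between 0.0104 and 0.0428.

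Complex IV held the widest span. Cox6b2 (chromosome 7, 4703396 to 4704696), a form of a complex IV subunit known from testis, had 342 FPKM in Nan/+ and 45.6 FPKM in wild-type livers, the largest change of all members (log2 ratio of 2.91, q = 0.00244) in the authors' deposited table. Cox4i2, the lung-type and oxygen-responsive form of another subunit, was the lowest member at 2.45 FPKM in Nan/+ and 0.760 FPKM in wild type (q = 0.0472) in the authors' deposited table. The general subunits Cox5a and Cox8a had 410.5 and 772 FPKM in Nan/+ and 154 and 309 FPKM in wild type in the authors' deposited table. Of the assembly factors, the copper chaperone Cox17 had 515 FPKM in Nan/+ and 211 FPKM in wild type, and Cox14 had 92.2 FPKM in Nan/+ and 40.9 FPKM in wild type. Cox4i2 overlaps Bcl2l1 in RefSeq, and its reads may be shared. In all, 14 members, 12 of them in the liver table, have a locus that overlaps another protein-coding gene or departs in length from RefSeq, among them Ndufa1, Uqcrq, Tomm6, Timm10b, Mrpl14, Mrpl27, Mrpl43 and Mrps18a in liver and Mrpl37 and Rpl18 in the cell lines.

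In Nan/+ livers the highest single levels were those of the complex V genes, followed by Uqcr11 of complex III. Atp5k (chromosome 5, 108862272 to 108863397), which codes for subunit e of ATP synthase, had 1634 FPKM in Nan/+ and 509 FPKM in wild-type livers (log2 ratio of 1.68, q = 0.0174) in the authors' deposited table. Atp5e (chromosome 2, 174286576 to 174289602), the epsilon subunit, had 1166 FPKM in Nan/+ and 342 FPKM in wild type (log2 ratio of 1.77, q = 0.0141) in the authors' deposited table. In complex III, Uqcr11 had 919 FPKM in Nan/+ and 347 FPKM in wild type, Uqcrq 740 FPKM in Nan/+ and 298 FPKM in wild type, and Uqcr10 683 FPKM in Nan/+ and 237 FPKM in wild type in the authors' deposited table. All 3 are small subunits, with log2 ratios of 1.41 for Uqcr11, 1.31 for Uqcrq and 1.53 for Uqcr10 in the authors' deposited table.

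Import and mitochondrial ribosome genes had the same direction at lower levels. Timm13 had 196 FPKM in Nan/+ and 64.8 FPKM in wild-type livers, and Timm10b, also a small chaperone of the space between the membranes, had 52.3 FPKM in Nan/+ and 22.4 FPKM in wild type in the authors' deposited table. Tomm6 and Tomm7, small subunits of the outer membrane translocase, had 226 and 121.5 FPKM in Nan/+ and 79.1 and 48.1 FPKM in wild type. In the mitochondrial ribosome Mrps12 changed most, with 133 FPKM in Nan/+ and 48.2 FPKM in wild type (log2 ratio of 1.47, q = 0.00611), and Mrpl43 least, with 46.9 FPKM in Nan/+ and 23.4 FPKM in wild type (log2 ratio of 1.00, q = 0.0404) in the authors' deposited table. Mrps21 (351 FPKM in Nan/+, 147 FPKM in wild type) and Mrpl52 (335 FPKM in Nan/+, 136 FPKM in wild type) were the most abundant, and Mrpl11 (29.3 FPKM in Nan/+, 13.8 FPKM in wild type) the least, in the authors' deposited table. Of the other small-subunit genes, Mrps16 had 178 FPKM in Nan/+ and 70.9 FPKM in wild type, Mrps24 had 89.1 FPKM in Nan/+ and 38.6 FPKM in wild type, Mrps11 had 80.5 FPKM in Nan/+ and 35.4 FPKM in wild type, and Mrps18a had 75.2 FPKM in Nan/+ and 33.3 FPKM in wild type. Of the other large-subunit genes, Mrpl33 had 290.4 FPKM in Nan/+ and 121 FPKM in wild type, Mrpl54 had 161 FPKM in Nan/+ and 69.9 FPKM in wild type, and Mrpl14 had 145 FPKM in Nan/+ and 67.2 FPKM in wild type. Mrpl27 had 145 FPKM in Nan/+ and 61.6 FPKM in wild type, Mrpl28 had 125 FPKM in Nan/+ and 57.5 FPKM in wild type, and Mrpl51 had 95.8 FPKM in Nan/+ and 40.9 FPKM in wild type. These 10 genes had log2 ratios between 1.11 and 1.33 in the authors' deposited table.

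The cytosolic ribosome had no structural protein in the liver table. Its 1 listed gene, Rps19bp1, had 65.0 FPKM in Nan/+ and 29.5 FPKM in wild-type livers (log2 ratio of 1.14, q = 0.0299) in the authors' deposited table. Of the 83 other genes of the same processes, 3 have a liver row and all 3 rose. Of all protein-coding genes 3.23% have a liver row, and 75.4% of all genes listed there rose. Chchd1, a protein of the mitochondrial ribosome, had 230.3 FPKM in Nan/+ and 93.8 FPKM in wild type in the authors' deposited table. Pam16, part of the import motor, had 116 FPKM in Nan/+ and 46.9 FPKM in wild type. Mtif3, an initiation factor of mitochondrial translation, had 12.9 FPKM in Nan/+ and 5.33 FPKM in wild type.

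**Figure D3:**
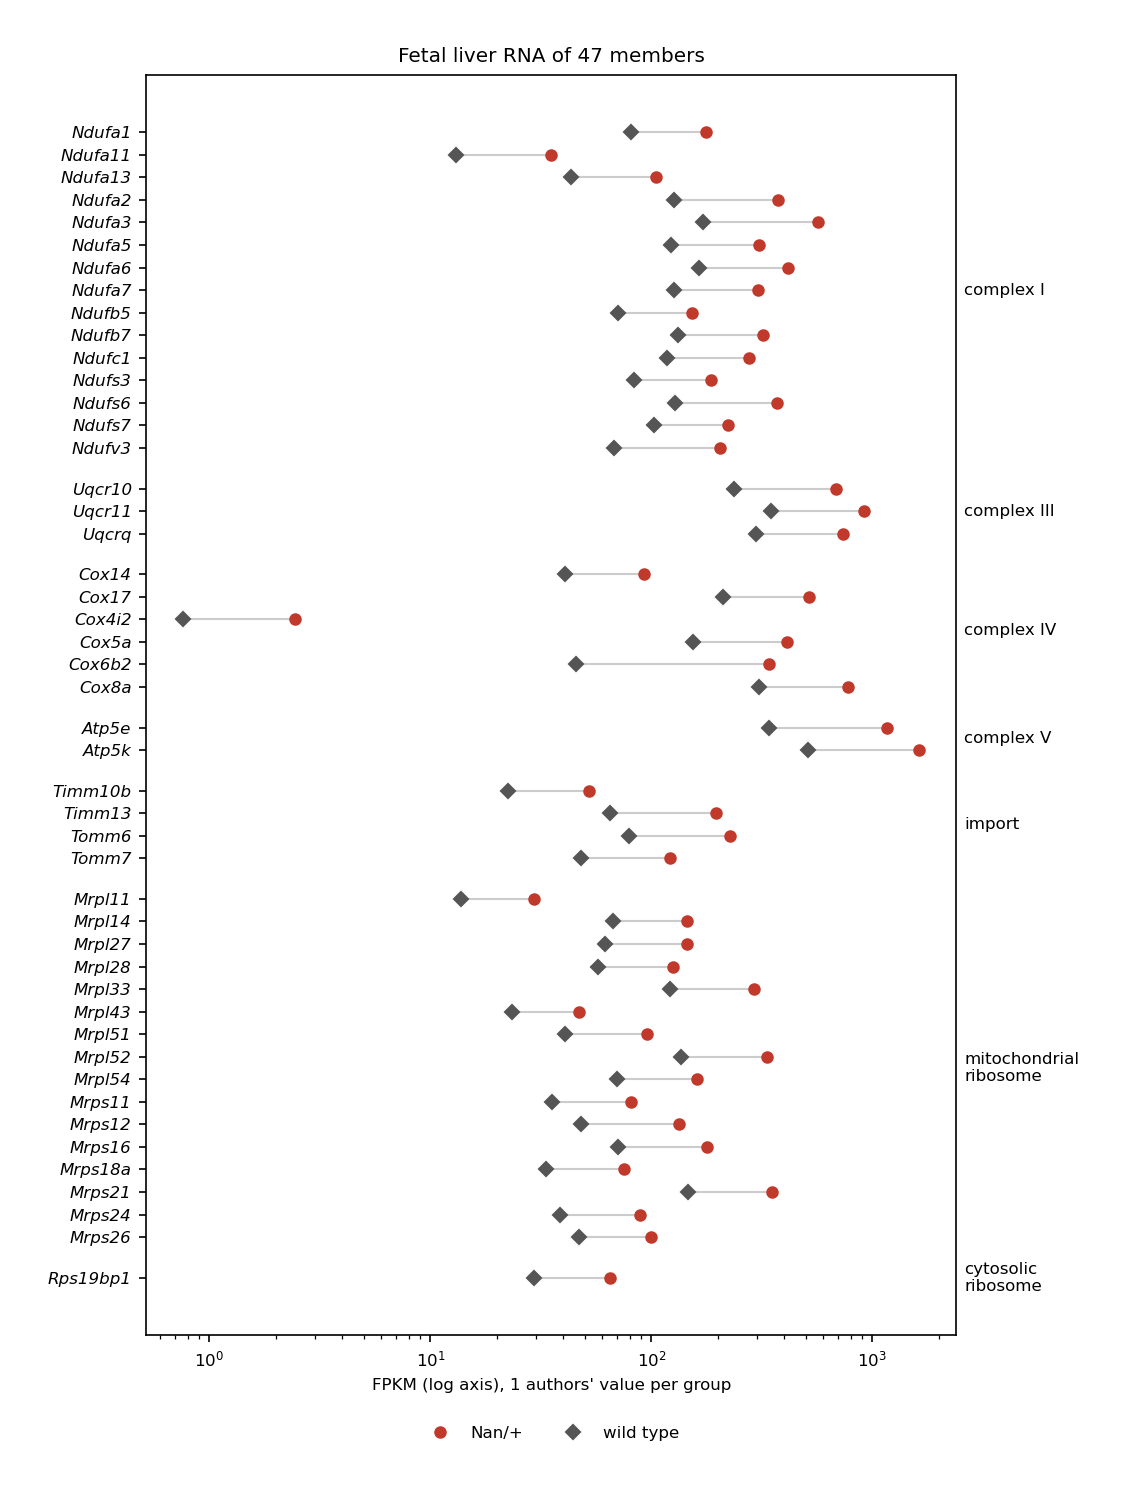
Level of polyadenylated RNA (FPKM, log axis) of the 47 members in Nan/+ (red circles) and wild-type (grey diamonds) fetal livers, grouped by complex, with a line joining both values of a gene. Each point is the authors' single value per group. Every Nan/+ point lies to the right of its wild-type point, by log2 ratios of 1.00 to 1.77 except for Cox6b2 at 2.91.

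Markers of other cells moved with genotype in the same livers. All 5 listed granulocyte markers rose, with a summed level of 2367 FPKM in Nan/+ and 396 FPKM in wild type, and 2 of 5 macrophage markers rose, with 79.9 FPKM in Nan/+ and 37.96 FPKM in wild type. Of 11 skeletal muscle markers 8 fell, to a summed 2.64 FPKM in Nan/+, against 48.4 FPKM in wild type. None of the listed erythroblast and hepatocyte markers has a row in the liver table. Xist, the RNA of the silenced X chromosome of female cells, had 0.04 FPKM in Nan/+ and 25.1 FPKM in wild type in the authors' deposited table. The part of these differences in the members' values was not tested, and in whole tissue more cells of a type and more RNA per cell cannot be told apart.

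The members are short genes, and direction went with locus length in K1-NanER and in Nan/+ liver, though not in K1-ER. The median locus length was 3825 bp for the 27 members of the 4sU table, against 18043 bp for its other genes, and 4448 bp for the 47 members of the liver table, against 10878.5 bp for its other genes. In the shortest quintile of the 4sU table (275 to 5598 bp) 14 of 18 members fell in K1-NanER, which is 77.8% of those called, against 110 of 189 other called genes, which is 58.2%. In the longest quintile 15.4% of other called genes fell. In K1-ER the share of other called genes that fell was 25.1% in the shortest quintile, between 19.4% and 22.5% in the next 3, and 26.5% in the longest. In the shortest quintile of the liver table (334 to 3189 bp) all 17 members and 90.8% of the 142 other genes rose in Nan/+, while 46.5% of other genes in the longest quintile rose. Direction also went with level. Of other called genes in the top quintile by level 53.6% fell in K1-NanER and 91.1% rose in Nan/+ liver, against 15 of 20 members and 36 of 36 members in those comparisons. The part of locus length and level in the members' changes was not tested.

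**Figure D4:**
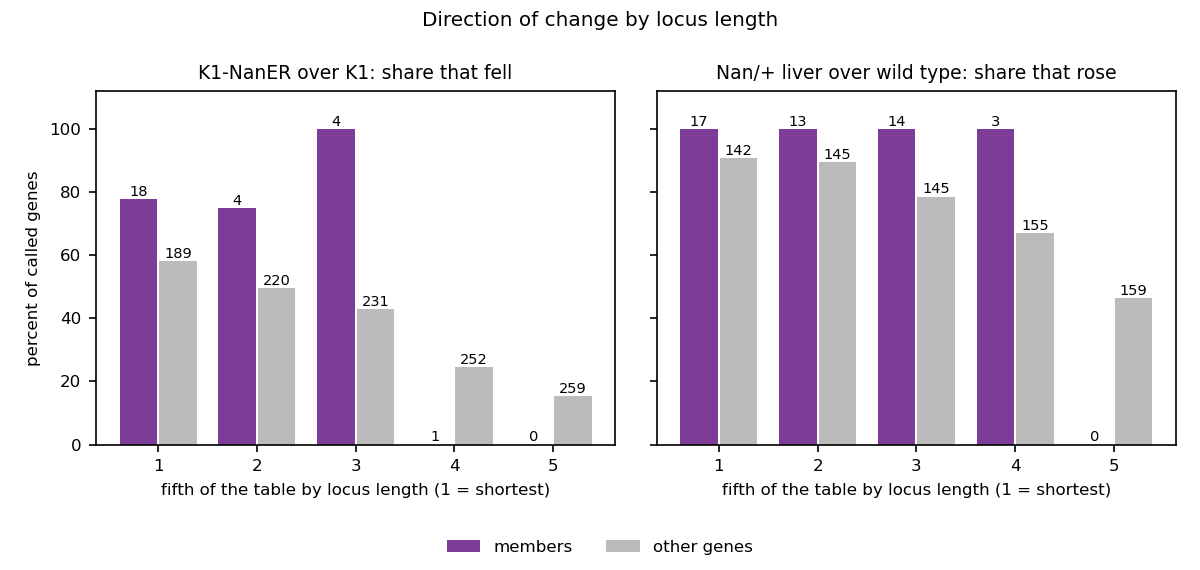
Share of called genes that fell in K1-NanER (left) and that rose in Nan/+ liver (right), in percent, by quintile of the table in locus length, for members (purple) and other genes (grey), with the number of called genes above each bar. In liver all members rose in each quintile that holds any, and the share of other genes that rose was 90.8% in the shortest and 46.5% in the longest quintile.

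The 5 members in both tables had opposite directions in the cell line and in liver. Ndufa13, Ndufb7, Uqcr11, Timm13 and Mrps26 all fell in K1-NanER and all rose in Nan/+ liver. In liver, per the authors' deposited table, Mrps26 had 99.9 FPKM in Nan/+ and 46.9 FPKM in wild type, Ndufa13 had 105 FPKM in Nan/+ and 43.2 FPKM in wild type, and Ndufb7 had 318 FPKM in Nan/+ and 132 FPKM in wild type. The log2 ratio of the authors' deposited table, in K1-NanER and then in liver, was -1.55 and 1.09 for Mrps26, -1.91 and 1.28 for Ndufa13, -1.55 and 1.27 for Ndufb7, -1.503 and 1.41 for Uqcr11, and -1.43 and 1.59 for Timm13. Among the 55 other genes of both tables that passed in K1-NanER, 17 fell there and rose in liver, 22 rose in both, 11 rose in K1-NanER and fell in liver, and 5 fell in both. The cell line values are 1 h of new RNA in cells with an induced fusion protein, whereas the liver values are whole polyadenylated RNA of animals that carried the allele throughout development, and the FPKM scales of both tables were set separately.

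Few members had a ChIP peak assigned to them by the authors, who gave each peak its nearest gene within 300 kb. A Nan-KLF1 peak was assigned to 6 of 69 members (8.70%) and a KLF1 peak to 13 (18.8%), while 22.3% and 37.7% of all genes of both tables had one. Of the 27 4sU members, 3 had a Nan-KLF1 peak (11.1%) and 6 a KLF1 peak (22.2%), against 26.5% and 45.8% of all genes of that table. Of the 47 liver members, 4 had a Nan-KLF1 peak (8.51%) and 7 a KLF1 peak (14.9%), against 15.5% and 25% of all genes there. In the shortest quintile of the 4sU table by locus length, 2 of 18 members and 78 of 294 other genes had a Nan-KLF1 peak, and 4 of 18 members and 138 of 294 other genes had a KLF1 peak. In the shortest liver quintile, 1 of 17 members and 21 of 142 other genes had a Nan-KLF1 peak, and 3 of 17 members and 32 of 142 other genes had a KLF1 peak. The 20 members of the 4sU table without a peak had a median log2 ratio of -1.38 in K1-NanER. It was -1.37 for the 3 with a Nan-KLF1 peak (Rps21, Rpl29 and Timm13) and -1.40 for the 6 with a KLF1 peak. All 27 members passed in K1-NanER and 2 have peaks of both factors, so these medians cannot show whether peaks go with the change. The part of binding in the members' changes was not tested.

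Most of the assigned peaks lay outside promoters. A promoter peak was assigned to 2 of 69 members (2.90%) for Nan-KLF1 and to 2 for KLF1, against 8.68% and 19.0% of all genes of both tables. The 6 members with a Nan-KLF1 peak held 7 peaks, with fold enrichments of the authors from 87.7 to 214, of which 2 were placed at a promoter (Rps21 and Ndufa5). The 13 members with a KLF1 peak held 14, from 31.1 to 129, of which 2 were placed at a promoter (Timm10b and Ndufa11). Peaks of both factors were assigned to Uqcr10, Rpl29 and Rps21. The fold enrichment of the Rpl29 peak was 214 in the Nan-KLF1 list and 94.5 in the KLF1 list, with summits at 106335701 and 106335670 on chromosome 9. These summits lie 1803 and 1772 bp outside the Rpl29 locus, though the authors placed them in coding sequence and in an intron. Rps21 had a distal Nan-KLF1 peak at chr2:179990309-179990664 and a promoter one at chr2:179991376-179991794, and the KLF1 peak at chr2:179990115-179991902 spans both (mm9, positions as listed).

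**Figure D5:**
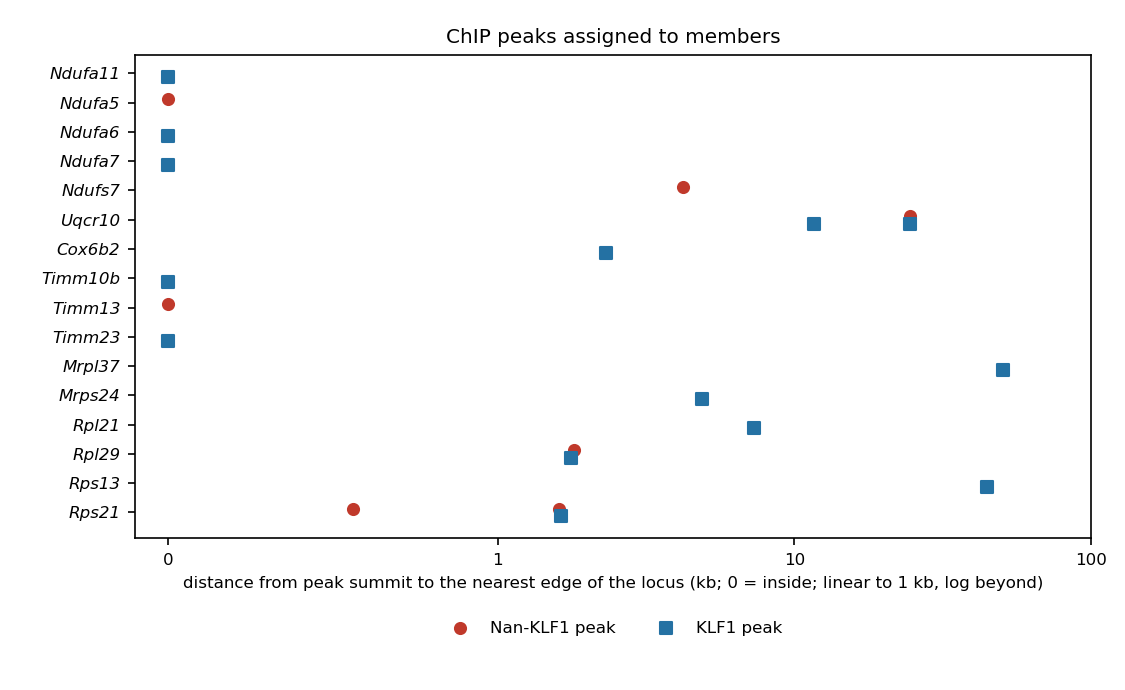
Distance from the summit of each assigned ChIP peak to the nearest edge of the member's locus (kb, linear to 1 kb and logarithmic beyond), for Nan-KLF1 (red circles) and KLF1 (blue squares). Summits inside a locus as listed are at 0, among them that of Timm13, whose listed locus is far longer than in RefSeq. The KLF1 peaks of Mrpl37 and Rps13 lie 50495 and 44608 bp away, while 3 Nan-KLF1 and 5 KLF1 peaks lie inside or within 1 kb of the locus.

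Summits inside or within 1 kb of a member's locus were those of Nan-KLF1 at Ndufa5, Rps21 and Timm13 (4.35% of members, against 20.2% of all genes of both tables) and of KLF1 at Ndufa11, Ndufa6, Ndufa7, Timm10b and Timm23 (7.25%, against 35.7%). The locus listed for Timm13 is 21154 bp long, against 1520 bp in RefSeq, and overlaps Tmprss9. Its summit lies inside the listed locus and may lie outside the gene. The authors list a central motif for most peaks. These motifs are shown for the peaks at or near member loci because the Nan change lies in a finger that reads this element, in capitals throughout as listed:
Ndufa5, Nan-KLF1 peak at the promoter: CCCTACCC
Rps21, Nan-KLF1 peak at the promoter: CCCTGCCC
Timm13, Nan-KLF1 peak in an intron: CCCAGCCC
Timm23, KLF1 peak in an intron: CCACGCCC
Ndufa7, KLF1 peak in an intron: CCACGCCC
Ndufa6, KLF1 peak in an intron: CCAATCCC
Timm10b, KLF1 peak at the promoter: CCCAACCC
Among the 7 Nan-KLF1 peaks of members CCACGCCC was listed for 1, the distal peak of Rps21. Over the 14 KLF1 peaks it was the most frequent listed motif, in 6 peaks, and 4 had none. How often it was listed over all peaks of each factor is not given here. These counts therefore do not set the members' peaks apart from other peaks.

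The RefSeq promoter windows (GRCm38.p6, 250 bases before to 50 after a start) of Ndufa5, Timm10b and Ndufa11 are printed because a peak that the authors placed at the promoter spans the start of the locus. The promoter peak of Rps21 ends at 179991794, more than 250 bases before its locus starts at 179992084, so its window is not shown. Capitals mark the listed central motif of the peak, CCNCNCCC or CCNNGCCC on either strand:
Ndufa5 (chr6:24527477-24527776, minus strand): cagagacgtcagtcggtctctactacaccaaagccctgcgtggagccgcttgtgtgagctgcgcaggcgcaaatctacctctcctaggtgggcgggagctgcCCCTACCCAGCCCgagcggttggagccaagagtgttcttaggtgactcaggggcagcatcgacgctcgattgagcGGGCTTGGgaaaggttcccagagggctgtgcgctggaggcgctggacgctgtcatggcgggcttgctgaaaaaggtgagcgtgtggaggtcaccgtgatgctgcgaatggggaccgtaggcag
Timm10b (chr7:105640195-105640494, plus strand): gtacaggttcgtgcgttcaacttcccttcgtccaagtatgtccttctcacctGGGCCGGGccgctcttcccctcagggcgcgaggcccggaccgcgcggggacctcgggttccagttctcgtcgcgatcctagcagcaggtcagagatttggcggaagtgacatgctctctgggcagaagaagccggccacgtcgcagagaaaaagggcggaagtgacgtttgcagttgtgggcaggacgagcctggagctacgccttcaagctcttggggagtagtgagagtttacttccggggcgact
Ndufa11 (chr17:56717512-56717811, plus strand): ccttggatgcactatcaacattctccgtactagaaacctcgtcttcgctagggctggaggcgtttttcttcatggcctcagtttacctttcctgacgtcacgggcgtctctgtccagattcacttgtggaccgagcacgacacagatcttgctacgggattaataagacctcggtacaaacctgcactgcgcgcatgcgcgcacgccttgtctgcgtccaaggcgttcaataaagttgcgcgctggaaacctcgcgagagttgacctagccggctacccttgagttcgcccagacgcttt
In Ndufa5 the listed motif of its Nan-KLF1 peak, CCCTACCC, occurs once and overlaps a CCNNGCCC match, and a second CCNNGCCC match lies on the other strand. The listed motif of the Timm10b peak is not in its window, which has 1 match to CCNNGCCC. The Ndufa11 window holds neither pattern. Ndufa5 has another start in RefSeq, and the window of the downstream one is shown. Its listed locus, 9022 bp against 9029 bp in RefSeq, begins near the upstream start. The window of that upstream start holds CCCTACCC once and 1 match to CCNNGCCC.

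RefSeq promoter windows were found for 60 of the 69 members, with 66 windows in all. On either strand CCNCNCCC was in 62.1% of them, CCNNGCCC in 48.5% and CACCC in 51.5%. Of all 32851 promoter windows 49.5% held CCNCNCCC, 40.6% CCNNGCCC and 57.5% CACCC. The shares were near each other for members of the 4sU table and of the liver table (63.0% and 63.6% with CCNCNCCC, 48.1% and 47.7% with CCNNGCCC). These patterns overlap one another in part, and a match describes letters only.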

How the data were processed

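The series holds 16 samples; 4 processed tables were used. Per the submitters' processing notes, TopHat2 2.0.10, MACS 1.4.2 and build mm9 were used. No source used here names the program behind the expression levels and q values, or how peaks got their gene, location and motif. The authors deposited FPKM as 1 value per group, log2 ratios of the first group over the second, and their own p-values and q values per gene. The deposited log2 ratios of the members differ from those recomputed from FPKM by at most 0.00429. Fold enrichment, a ratio deposited by the authors for every peak, and its rank, their score within a list, only describe peaks. Table starts were read as 0-based, because 33 of 69 member loci then equal the RefSeq length, and are printed 1 higher.

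Members were found by symbol, counted where the authors' q was at most 0.05, and described beside all genes of the same table with pandas 2.3.3 and Python 3.11.15. No test of a list was run and no model was fitted, since no values per sample were used. The labels do not say if libraries of a group are separate cultures or litters, so the authors' p-values may measure technical spread. Length and level quintiles hold equal numbers of genes of a table. RefSeq GRCm38.p6 gave family sizes, overlaps, pseudogenes and promoters; all 69 symbols matched. The motif search was tested on simulated sequences. The members and lists were chosen with earlier results of these data known. Genes were named by a fixed rule: all liver members, members in both tables or with a peak, and per group and comparison the 4 largest changes and the highest level; values of a few genes are not reported here.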

Additional observations from a re-analysis of the deposited data

How the results depend on the processing

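At the stricter q of 0.01, 9 members fell and 4 rose in K1-NanER, 0 fell and 0 rose in K1-ER, and 3 rose in Nan/+ liver; at that q 12.8% and 28.2% of the 4sU table fell and rose in K1-NanER and 35.3% of the liver table rose. Limiting peaks to summits within 1 kb of the locus left 3 members with a Nan-KLF1 peak and 5 with a KLF1 peak, and counting any such peak whatever gene it was assigned to, an alternative chosen after the data were seen, also gave 3 and 5. Peaks at or above the median fold enrichment of a list left 6 members with a KLF1 peak. The counts of risen and fallen members stayed within 1.5 times when only subunits, translocases and ribosomal proteins were kept and with a minimum level, in the cell lines also with a 2-fold minimum. So did the K1-NanER counts and the liver count of risen members without the 14 members of uncertain locus, also chosen after the data were seen. The 3 cell line medians of log2 ratios moved by at most 0.1 with log2(FPKM + 1), with a minimum level or with subunits, translocases and ribosomal proteins only. No paired analysis was possible because the tables give 1 pooled value per group, and for the same reason no replicate could be left out. The depth is unknown, so the smallest change that could have been detected is not known, and clone, sex and tissue make-up cannot be told apart from the groups.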

Other observations

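Of the genes that RefSeq names by the same rule, 233 have no row in either expression table. A Nan-KLF1 peak was assigned to 15 of them (6.44%, 16 peaks, 7 at a promoter) and a KLF1 peak to 35 (15.0%, 39 peaks, 14 at a promoter), against 8.70% and 18.8% of the members. The strongest promoter peak was that of Rpl31, a protein of the large cytosolic subunit, with a fold enrichment of 205 in the Nan-KLF1 list and 517 in the KLF1 list. Promoters of Rpl31, Ndufa10, Mrps18b, Timmdc1 and Rps6ka3 were in both lists. The peaks of Timmdc1 and Rps6ka3 are not listed as intersecting between the factors, while those of Rpl31, Ndufa10 and Mrps18b are. The counts include kinase genes that carry a ribosomal prefix by name only (Rps6ka3, Rps6ka1, Rps6kl1 and Rps6kb2), with 4 peaks in each list. Promoters of Atp5g1 (107) and Uqcrfs1 (86.1) were in the Nan-KLF1 list alone, and those of Rps23 (220), Ndufb4 (123), Rps19 (82.0), Mrps33 (48.8), Cox4i1 (35.1), Rpl12 (34.4) and Ndufa4l2 (168) in the KLF1 list alone, among others, with their fold enrichments in brackets. Cox4i1 also had a Nan-KLF1 peak, placed in coding sequence (95.1). Whether the RNA of these genes differed between the lines is not given by the tables used here.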
